A study of Mus musculus with 23 samples.

Results

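Resident Kupffer cell markers are the genes whose transcripts, in mouse liver, come mainly or strongly from the liver's own macrophages. They were chosen by gene name as Clec4f, Vsig4, Timd4, Cd5l, Marco, Folr2, Cd163, Adgre1 and Csf1r, which makes 9 of the 26522 genes listed in the deposited tables. Bulk RNA was sequenced from whole livers of 23 mice, and reads per gene were compared between livers with ablated Cpt1a, labelled LKO, and controls. The males comprised 5 controls and 6 LKO mice, and the females 6 of each. All of the mice, controls included, were labelled B100, ate the diet called WD for 16 weeks and were fed at necropsy. Age, strain, the Cre driver and the meaning of the abbreviations B100 and WD are not given in the sources used here. Replicates carry the numbers of the sample titles, and the control males analysed here are numbers 1, 2, 3, 4 and 6.

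Kupffer cells line the liver sinusoids, where they clear particles, dying cells, iron-bearing red cells and lipoproteins from portal blood. Most of them are seeded before birth and renew themselves in place. Signals from neighbouring cells, among them Csf1, Il34, Notch ligands and BMP ligands, keep up their identity through regulators such as Nr1h3, Spic, Id3 and Maf. When resident cells are lost, or when the diet is rich in fat, monocytes enter the liver, and the macrophages they form can take on a lipid-associated state marked by Gpnmb and Trem2 before they acquire resident markers such as Timd4. In bulk tissue, fewer Kupffer cells and less marker RNA per cell cannot be told apart.

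Total counts per liver ran from 14224665, in control male 4, to 19626662. Control male 4 also had the fewest genes with counts (18232). Over all genes tested, its counts lay far from those of each other control male (chi-square per degree of freedom 77.8 to 113). Among those others the value was 11.2 to 40.6. LKO female 6 lay apart from its group in the same way (59.7 to 74.8, against 13.7 to 41.2 among the others). Cpt1a, the carnitine palmitoyltransferase that admits long-chain fatty acids to mitochondria, had a level of 357 ± 50.3 CPM (counts scaled to a common library total; SD, n = 5) in control males and 63.0 ± 20.2 CPM (SD, n = 6) in LKO males. In females the level was 387 ± 59.1 CPM (SD, n = 6) in controls and 75.9 ± 8.87 CPM (SD, n = 6) in LKO. The groups did not overlap in either sex, which fits the labels of all 23 livers. Each sex was deposited as a table of its own, so a difference between the sexes and a difference between the tables cannot be told apart. No batch is labelled. No label says more than the title number about where a replicate came from, so the p-values measure the spread between these livers. Every one of the 9 markers had counts in every liver, the lowest being 23 counts for Cd163 in control male 1, and all of them passed the filter on low counts in every comparison.

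In the deposited tables, whose submitters name mm39 in their processing notes, all 9 genes are protein-coding, and Clec4f (ENSMUSG00000014542) spans chr6:83621524-83633169, Vsig4 (ENSMUSG00000044206) chrX:95290809-95337044 and Timd4 (ENSMUSG00000055546) chr11:46701627-46735159. The promoters of the markers that were called in both comparisons of females with males (Clec4f, Vsig4 and Timd4) are shown first, with that of Cd5l as the marker with matches to both motifs that were searched. The sequences are the 250 bases before the RefSeq start site, on the gene's own strand, in build GRCm38.p6. Capitals mark matches, read on either strand, to GAGGAAG, a core of sites bound by ETS factors such as Spi1 and Spic, or to TGCTGA, an arm of the palindrome bound by Maf factors. The motifs do not overlap in these stretches. Clec4f lies at chr6:83656117-83656366 (minus strand), Vsig4 at chrX:96293439-96293688 (minus strand), Timd4 at chr11:46810549-46810798 (plus strand) and Cd5l at chr3:87357631-87357880 (plus strand).
Clec4f: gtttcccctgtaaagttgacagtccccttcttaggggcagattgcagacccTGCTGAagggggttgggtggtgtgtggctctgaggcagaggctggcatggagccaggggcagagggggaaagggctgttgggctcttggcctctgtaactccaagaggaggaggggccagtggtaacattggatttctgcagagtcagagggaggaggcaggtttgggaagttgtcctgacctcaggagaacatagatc
Vsig4: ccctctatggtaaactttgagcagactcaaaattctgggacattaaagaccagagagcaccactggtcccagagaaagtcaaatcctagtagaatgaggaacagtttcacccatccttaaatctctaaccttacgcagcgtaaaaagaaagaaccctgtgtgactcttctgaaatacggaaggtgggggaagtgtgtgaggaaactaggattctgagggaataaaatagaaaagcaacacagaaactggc
Timd4: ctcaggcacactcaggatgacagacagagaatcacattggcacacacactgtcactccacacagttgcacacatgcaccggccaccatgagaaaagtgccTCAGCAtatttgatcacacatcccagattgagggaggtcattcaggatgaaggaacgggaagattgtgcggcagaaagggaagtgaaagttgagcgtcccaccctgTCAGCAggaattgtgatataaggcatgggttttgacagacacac
Cd5l: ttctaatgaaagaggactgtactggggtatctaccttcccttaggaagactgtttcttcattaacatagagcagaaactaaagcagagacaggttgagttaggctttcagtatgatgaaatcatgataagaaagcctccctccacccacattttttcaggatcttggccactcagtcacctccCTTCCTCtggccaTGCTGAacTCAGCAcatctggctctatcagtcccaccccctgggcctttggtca

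TGCTGA or its reverse stood in the promoters of 4 of the 7 marker genes that were matched (Cd5l, Clec4f, Folr2 and Timd4), and in 16.1 percent of all 32851 promoters of the same length. GAGGAAG or its reverse stood in 2 of the 7 (Cd5l and Marco), and in 10.6 percent of all promoters. The stretch of Vsig4 held neither string. These matches describe the letters only.

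Per kilobase of gene length, Cd5l and Clec4f were the most abundant of the 9 markers in every group. Cd5l, a secreted protein of the scavenger receptor family that binds lipids and supports macrophage survival, stood at 101 ± 35.4 CPM per kilobase in control males, 122 ± 30.8 in LKO males, 160 ± 38.1 in control females and 154 ± 36.4 in LKO females (SD, n = 5, 6, 6 and 6). Clec4f, a C-type lectin receptor found in mice on Kupffer cells, stood at 52.9 ± 17.6, 67.6 ± 4.18, 99.9 ± 16.8 and 96.0 ± 15.4 CPM per kilobase in the same order of groups. Vsig4, the receptor that captures complement-coated particles, came next in mean level, from 18.6 ± 7.79 CPM per kilobase in control males to 37.8 ± 5.84 in LKO females. Csf1r, the receptor for Csf1 and Il34 on which most tissue macrophages depend, followed with 10.5 ± 2.39 CPM per kilobase in control males and 16.1 ± 2.11 in LKO females. The Vsig4 and Csf1r values of single livers did not overlap in control males or in any other group, and neither did those of Clec4f and Vsig4, whereas those of Cd5l and Clec4f overlapped in every group but LKO males. Group means of Marco (5.58 to 14.7 CPM per kilobase) and Adgre1 (5.31 to 8.24) came next, with ranges that overlapped each other, and then those of Timd4 (2.14 to 5.81) and Folr2 (2.41 to 4.03). At the low end lay Cd163, the scavenger receptor for haemoglobin bound to haptoglobin, with 0.756 ± 0.418 CPM per kilobase in control males and at most 1.86 ± 0.448, in control females.

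**Figure D1:**
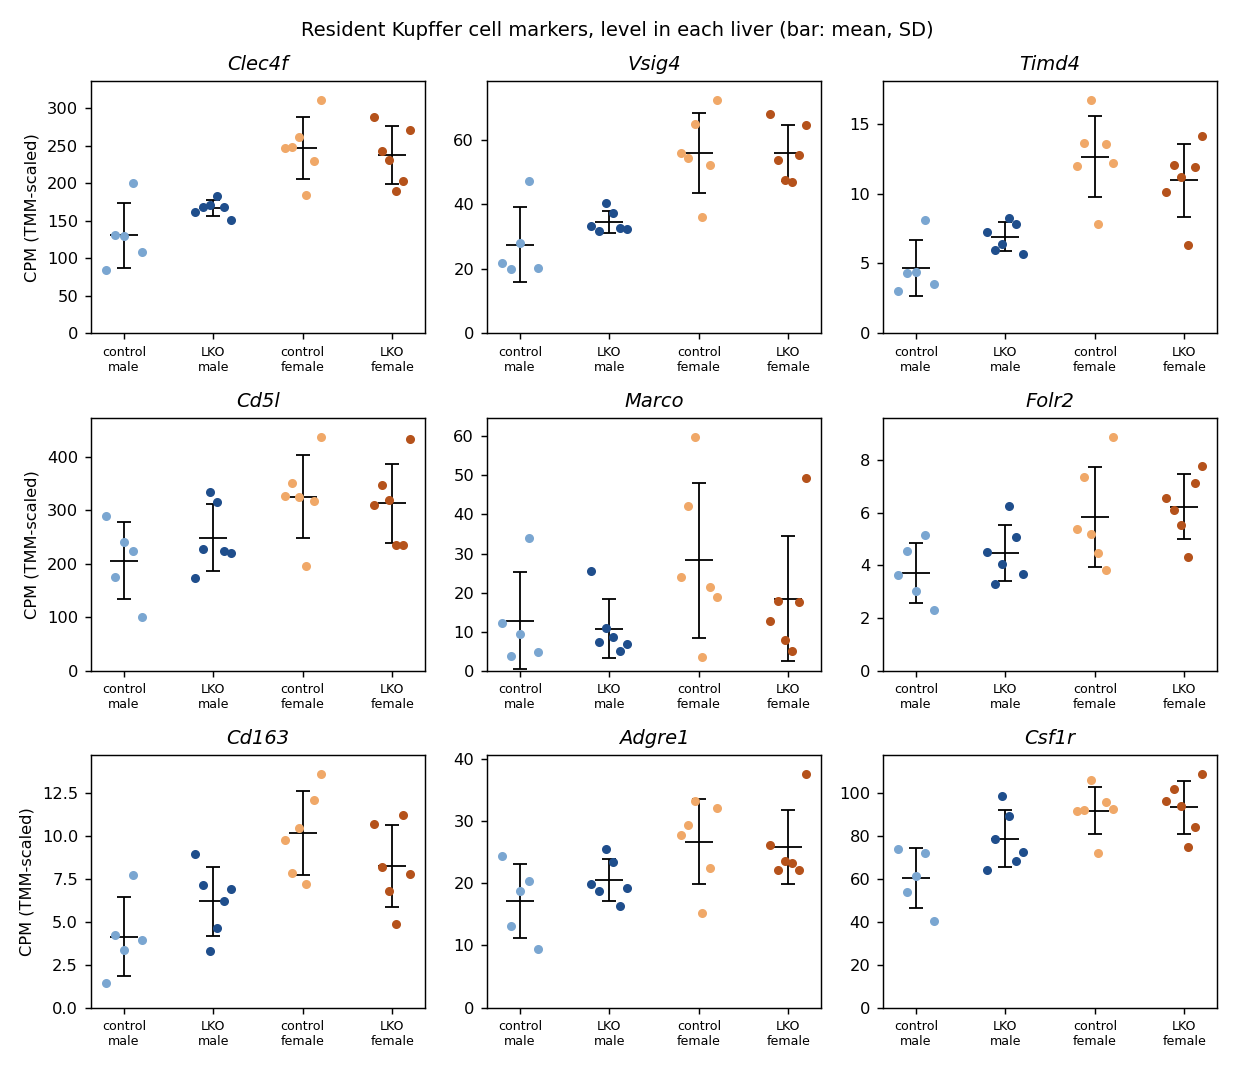
Level of each of the 9 markers, in CPM after TMM scaling (vertical axis, from 0), by group; each point is 1 liver, in order of replicate number from left to right within a group, and the bars are the mean and SD. LKO males lie close together for Clec4f, between 152 and 183 CPM, while control males run from 83.9 to 200 CPM, and Marco spreads widely in all 4 groups.

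In males, LKO livers had somewhat higher mean levels of 8 of the 9 markers, and none of these differences passed the test. Clec4f measured 83.9, 131, 130, 200 and 109 CPM in control males 1, 2, 3, 4 and 6. In LKO males it had a lowest value of 152, a median of 168 and a highest of 183 CPM. All of the LKO males were above the mean of the controls, and none was above control male 4. The coefficient of variation of Clec4f was 33.2 percent in control males and 6.18 percent in LKO males. The log2 difference was 0.36 (SE 0.17, 95% interval -0.0037 to 0.71, edgeR adjusted p = 0.407).

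Timd4, the receptor for phosphatidylserine on dying cells that marks long-established Kupffer cells, followed the same layout. Its levels were 3.005, 4.29, 4.36, 8.11 and 3.52 CPM in control males 1, 2, 3, 4 and 6, and the lowest, median and highest LKO males had 5.69, 6.83 and 8.27 CPM. Control male 4 stood inside the LKO range and the other controls below it. The log2 difference was 0.58 (SE 0.22, 95% interval 0.10 to 1.06, edgeR adjusted p = 0.324). Vsig4 measured 21.8, 19.98, 28.1, 47.4 and 20.4 CPM in the controls, against a lowest of 31.6, a median of 33.1 and a highest of 40.4 CPM in LKO males. Here control male 4 was above every LKO male and the other controls were below every one, with a log2 difference of 0.33 (SE 0.20, 95% interval -0.09 to 0.76, edgeR adjusted p = 0.510).

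Csf1r was measured at 74.0, 54.0, 61.1, 72.2 and 40.5 CPM in control males and at a lowest of 64.2, a median of 75.6 and a highest of 98.7 CPM in LKO males. All 6 LKO males were above the control mean and 3 were above the highest control, and the log2 difference was 0.38 (SE 0.16, 95% interval 0.04 to 0.72, edgeR adjusted p = 0.354). Cd163 was at 1.41, 4.23, 3.36, 7.71 and 3.93 CPM in controls and between 3.32 and 8.94 CPM in LKO males, a log2 difference of 0.60 (SE 0.34, edgeR adjusted p = 0.494). Cd5l, Folr2 (the folate receptor of tissue macrophages) and Adgre1 (the adhesion receptor that serves as the standard mouse macrophage antigen) had log2 differences of 0.27, 0.27 and 0.25, with edgeR adjusted p-values between 0.661 and 0.691. Marco, a scavenger receptor for bacteria and particles, was the marker with a lower estimate in LKO males, at -0.24 (SE 0.54, edgeR adjusted p = 0.904).

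Over the male comparison edgeR called 0 of 9 markers, beside 0.00724 percent of the 13805 genes tested, which is Cpt1a alone. At an unadjusted p under 0.05 there were 2 of 9 (Timd4 and Csf1r) beside 12.5 percent of all genes, and DESeq2 (1.29 percent of the genes it gave an adjusted p) and limma on FPKM values also called 0 of 9. DESeq2 gave an adjusted p to only 8714 of the 13805 genes, and a marker without one counts here as not called. The median log2 difference of the 9 was 0.33, where that of all genes was 0.0103, and 52.1 percent of all genes were above 0. No marker separated the groups, against 1.74 percent of all genes. Without control male 4, whose level was the highest of its group for Clec4f, Vsig4, Timd4, Marco, Folr2 and Cd163, the log2 differences became 0.86 for Timd4, 0.61 for Vsig4, 0.56 for Clec4f, 0.92 for Cd163 and 0.51 for Marco. The lowest edgeR adjusted p among the 9 was then 0.130, so the call of 0 held. Without control male 6, the lowest of its group for Cd5l, Folr2, Adgre1 and Csf1r, the differences shrank to 0.096 for Cd5l, 0.098 for Adgre1 and 0.14 for Folr2. Without control male 1 they were 0.23 for Clec4f and 0.38 for Cd163, and 0.42 for Adgre1 and 0.43 for Cd5l.

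In females, none of the 9 markers passed the test either, and most estimates lay close to 0. Clec4f ran from 184 through a median of 247 to 311 CPM in control females and from 189 through 237 to 287 CPM in LKO females. The LKO range lay inside the control range, with a log2 difference of -0.06 (SE 0.13, edgeR adjusted p = 0.878) and a 95% interval for the ratio of LKO to control of 0.795 to 1.16. Vsig4 ran from 36.1 through 55.1 to 72.4 CPM in controls and from 47.0 through 54.4 to 68.0 CPM in LKO, with an interval for the ratio of 0.808 to 1.24 (edgeR adjusted p = 0.999). Csf1r was the most tightly bounded, from 72.0 through 92.2 to 106 CPM in controls and from 74.8 through 95.05 to 109 CPM in LKO, with an interval for the ratio of 0.873 to 1.18 (edgeR adjusted p = 0.945).

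The lower estimates in LKO females belonged to Timd4, Cd163 and Marco. Timd4 ran from 7.83 through 12.8 to 16.7 CPM in controls and from 6.32 through 11.5 to 14.1 CPM in LKO, a log2 difference of -0.21 (SE 0.18, 95% interval -0.60 to 0.18, edgeR adjusted p = 0.642). Cd163 had a log2 difference of -0.30 (SE 0.20, 95% interval -0.73 to 0.13, edgeR adjusted p = 0.515). For Marco it was -0.62, with a 95% interval of -1.80 to 0.56 that leaves its direction unsettled (SE 0.55, edgeR adjusted p = 0.652). Cd5l, Folr2 and Adgre1 lay at -0.06, 0.09 and -0.05.

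The female comparison thus called 0 of 9 markers, beside 1.42 percent of the 13684 genes tested with edgeR. At an unadjusted p under 0.05 there were also 0 of 9, beside 15.6 percent of all genes. DESeq2 called 0 of 9 markers and 4.09 percent of genes, and limma on FPKM values 0 of 9. The median log2 difference of the 9 was -0.06 and that of all genes 0.0051, and 2 of 9 lay above 0, beside 51.1 percent of all genes. No marker separated LKO from control females, against 1.58 percent of all genes. The adjusted p-values of the 9 markers in the authors' deposited table of females were 0.541 or more. In the table of males they were 0.226 or more for Csf1r, Clec4f, Vsig4, Adgre1, Cd5l and Marco. For Timd4, Cd163 and Folr2 the male entry may stand for a missing value and is not read as a test. Timd4 had a lower deposited unadjusted p there than Csf1r.

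**Figure D2:**
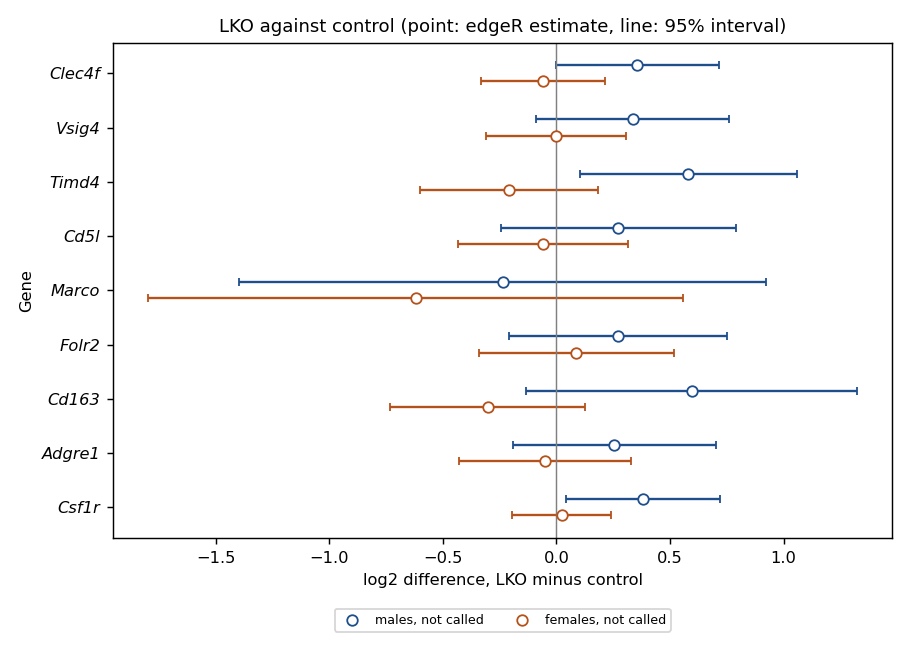
Log2 difference of LKO minus control for each marker (horizontal axis) in males and in females, as the edgeR estimate with its 95% interval; open points did not reach an adjusted p under 0.05. All points are open, 8 of the 9 male estimates lie above 0, and the intervals of Marco are the widest in both sexes.

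The difference between the sexes in the LKO effect was tested as an interaction over all 23 livers. All 9 interaction estimates were below 0, where 51.0 percent of all genes lay above it, meaning a lower LKO to control ratio in females than in males. edgeR called 0 of 9 markers and 0 percent of 14503 genes. At an unadjusted p under 0.05 stood Timd4, at -0.79 (SE 0.30, 95% interval -1.41 to -0.17, edgeR adjusted p = 0.293), and Cd163, at -0.90 (SE 0.40, edgeR adjusted p = 0.3603), which is 2 of 9 beside 12.9 percent of all genes. DESeq2 (0.718 percent of genes) and limma on FPKM values called 0 of 9 as well. The 9 estimates share the same 23 livers, and without control male 4 the Timd4 estimate was -1.07 (edgeR adjusted p = 0.0906). Over all genes, edgeR then called 17 of 14712.

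The larger contrast lay between the sexes. Among controls, all 9 markers had higher estimates in females, and Timd4, Cd163, Vsig4, Clec4f and Csf1r rose past the test. The ratio of control females to control males was 2.74 for Timd4 (95% interval 1.92 to 3.91, log2 difference 1.45, SE 0.24, edgeR adjusted p = 0.00173). It was 2.48 for Cd163 (log2 difference 1.31, SE 0.31, edgeR adjusted p = 0.0117) and 2.04 for Vsig4 (log2 difference 1.03, SE 0.23, edgeR adjusted p = 0.00889). For Clec4f it was 1.89 (log2 difference 0.92, SE 0.19, edgeR adjusted p = 0.00624), and for Csf1r 1.52 (log2 difference 0.60, SE 0.14, edgeR adjusted p = 0.0136).

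These 5 of 9 compare with 8.8 percent of the 13699 genes tested that were called higher in control females. At an unadjusted p under 0.05 there were 8 of 9, all but Marco, beside 33.1 percent of genes in either direction, and all 9 lay above 0, beside 50.5 percent. For each of the 5, 5 of the 6 control females were above every control male by CPM, and control female 4 fell below control male 4. No marker therefore separated the groups completely, where 5.13 percent of all genes had every control female above every control male. Cd5l, Folr2 and Adgre1 had log2 differences of 0.66, 0.66 and 0.63, with edgeR adjusted p-values of 0.0746, 0.0853 and 0.0824, and Marco 1.17 (SE 0.61, edgeR adjusted p = 0.215). Without control male 4, edgeR called 7 of 9, adding Marco at 1.92 (adjusted p = 0.0346) and Folr2 at 0.79 (adjusted p = 0.0447). Over all genes, that fit called 1468 of 13907 higher, against 1206 of 13699 with every control liver. Without control female 4 edgeR also called 7 of 9, adding Adgre1 at 0.75 and Cd5l at 0.76, beside 1151 of 13592 genes called higher. DESeq2 called 6 of 9, adding Cd5l, beside 22.1 percent of genes in either direction. With a replicate block, treated in the last section, edgeR called 2 of 9, losing Vsig4, Cd163 and Csf1r, beside 497 of 13699 genes called higher.

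Among LKO livers, a comparison added after the data were seen, Clec4f, Vsig4 and Timd4 were again higher in females. All 6 LKO females were above all 6 LKO males for Clec4f and for Vsig4, and 5 of 6 for Timd4. The ratios were 1.41 for Clec4f (log2 difference 0.50, SE 0.10, edgeR adjusted p = 0.00478), 1.61 for Vsig4 (log2 difference 0.69, SE 0.10, edgeR adjusted p = 0.000455) and 1.57 for Timd4 (log2 difference 0.65, edgeR adjusted p = 0.0172). These 3 of 9 stand beside 5.89 percent of 13778 genes called higher, and the complete separation of Clec4f and Vsig4 beside 2.96 percent of genes. All 9 estimates were above 0, beside 50.9 percent of genes, and 5 of 9 had an unadjusted p under 0.05, beside 26.8 percent. DESeq2 also called 3 of 9, beside 15.5 percent of genes in either direction. The 6 markers not called by edgeR had estimates between 0.24 and 0.78, and Folr2 was called without LKO male 4 or without LKO female 4.

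**Figure D3:**
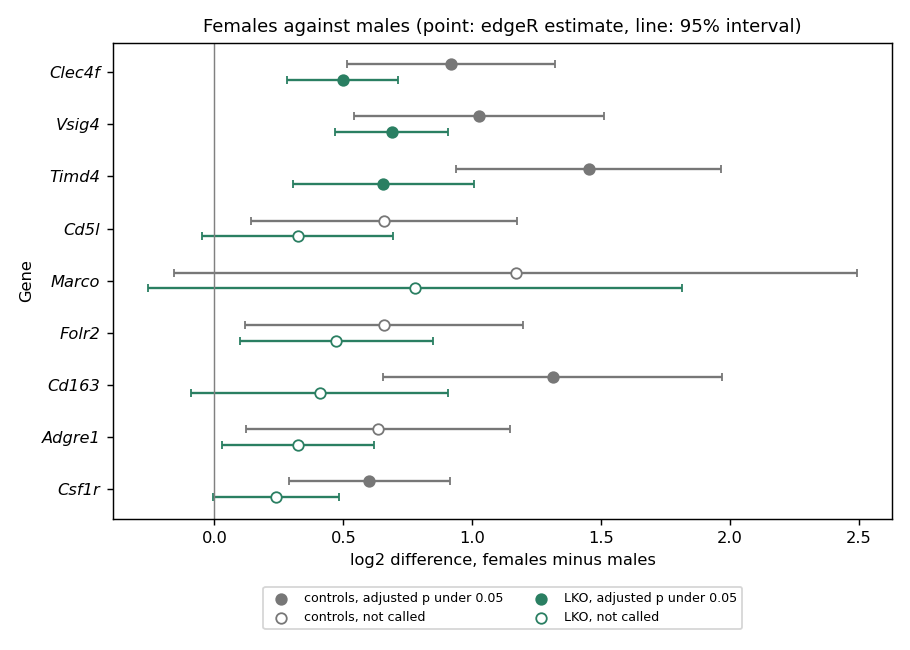
Log2 difference of females minus males for each marker (horizontal axis) among controls and among LKO livers, as the edgeR estimate with its 95% interval; filled points had an adjusted p under 0.05. Filled points number 5 among controls and 3 among LKO livers, and every estimate lies above 0.

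Within groups the markers tended to move together from liver to liver. After each group's mean of log2(CPM + 1) was taken off, 33 of the 36 pairs of markers had a Pearson correlation above 0 over the 23 livers, with a median of 0.54. The closest pairs were Cd5l with Csf1r (r = 0.91, rho = 0.86), Cd5l with Adgre1 (r = 0.86, rho = 0.80) and Clec4f with Vsig4 (r = 0.84, rho = 0.78). Cd163 stood apart from the first of these sets, with r = -0.21 against Cd5l and -0.12 against both Csf1r and Adgre1, where rho was -0.32, -0.14 and -0.16. Against Clec4f it had r = 0.64 and rho = 0.29. All of these pairs share libraries and scaling and are given as a description. No values for pairs drawn from all genes, or for these pairs without single livers, are given here. Averaged over the 9 markers, the largest departures from the group mean were -0.71 in control female 4, 0.68 in control male 4, -0.49 in LKO female 4, -0.48 in control male 6 and 0.45 in LKO female 6, on the log2 scale. Marco had the widest range within a group, running 17.4-fold from 3.44 CPM in control female 4 to 59.9 CPM in control female 3.

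**Figure D4:**
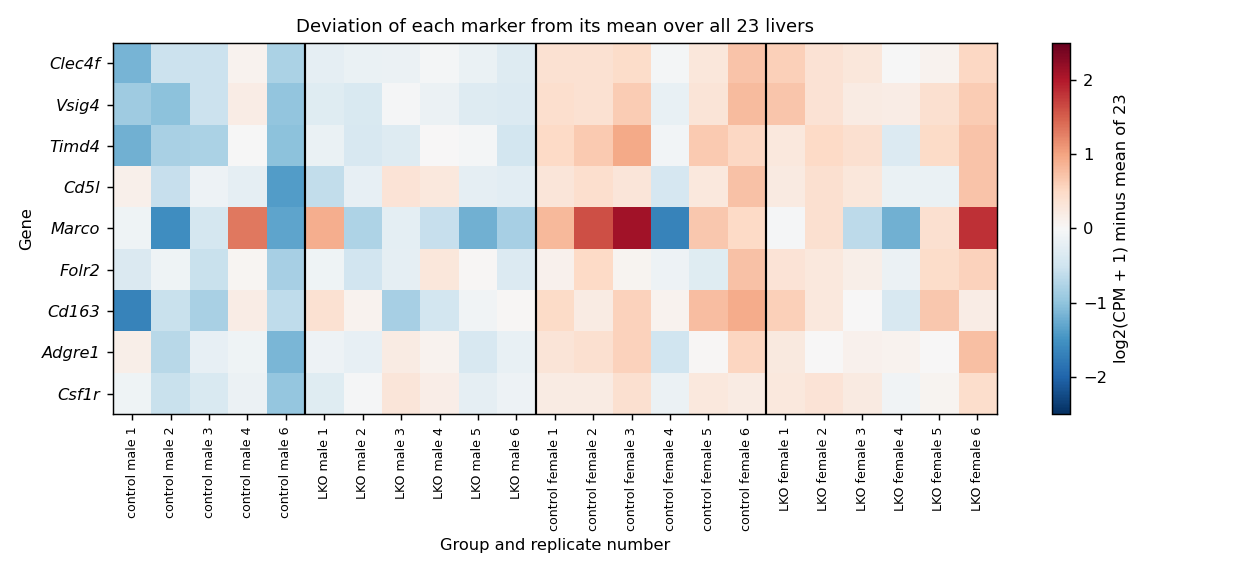
Log2(CPM + 1) of each marker (rows) in each liver (columns, by group and replicate number) minus that marker's mean over all 23 livers; red is above and blue below the mean. Most female columns are red and most control male columns blue. Control male 4 departs from its group, as do control female 4 and LKO female 4 from theirs.

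By the same measure, the genes outside the 9 that were most like the mean of the markers, of 14492 compared, were Fpr1 (r = 0.89), a formyl peptide receptor of phagocytes, Cfp (r = 0.88), the complement regulator properdin, Wfdc17 (r = 0.86), Siglece (r = 0.85), a sialic acid receptor, and Clec4a3 (r = 0.84), a C-type lectin receptor. Without the 2 livers farthest from the median of the marker mean, these correlations were 0.80, 0.84, 0.77, 0.77 and 0.83.

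The markers were then set beside genes of macrophages in general. The summed level of the 9 markers was 467 ± 122 CPM in control males, 578 ± 85.1 in LKO males, 804 ± 158 in control females and 769.5 ± 143 in LKO females. The 13 pan-macrophage genes, among them C1qa and Cd68, summed to 709 ± 227, 749 ± 190, 838 ± 153 and 999 ± 118 CPM. Per 100 CPM of these pan-macrophage genes, the markers took 95.7 ± 5.13 CPM in control females, with a range of 88.8 to 102, and 76.7 ± 7.63 CPM in LKO females, with a range of 70.5 to 90.7. Clec4f alone took 26.4 to 31.7 per 100 in control females and 22.6 to 24.9 in LKO females, 2 ranges that did not overlap. It was the 1 marker of the 9 whose ratio separated them, since the ratios of the other 8, and of the sum, overlapped. In males the summed ratio was 67.6 ± 12.1 in controls and 79.0 ± 9.77 in LKO. By CPM alone, Clec4f was 247 ± 41.5 in control females and 237 ± 38.2 in LKO females, and these groups overlapped. These ratios were computed after the data were seen and carry no test. The share of all genes whose ratio to the pan-macrophage sum would separate the female groups was not computed. Of the pan-macrophage genes edgeR called 0 of 13 in LKO females, beside 1.42 percent of all genes. Their median log2 difference was 0.26, and 12 of 13 estimates lay above 0, beside 51.1 percent of all genes. At an unadjusted p under 0.05 there were 4 of 13, beside 15.6 percent.

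Of 12 genes of lipid-associated macrophages, 6 were called higher in LKO females and 0 lower, beside 0.928 percent of all genes called higher. Gpnmb, a lysosomal glycoprotein, went from 1.19 ± 0.646 to 11.2 ± 6.87 CPM (SD, n = 6 each, log2 difference 3.22, edgeR adjusted p = 0.00256). Trem2, a lipid receptor, went from 3.21 ± 0.746 to 8.05 ± 1.79 CPM (log2 difference 1.32, edgeR adjusted p = 0.00314). Mmp12, Cd63, Lpl and Spp1 were the other members called, with log2 differences of 2.50, 1.45, 1.03 and 0.66. The estimates of 3 of the 12 lay below 0 and were not called: Fabp5, a fatty acid binding protein, at -1.08 (edgeR adjusted p = 0.296), Atp6v0d2 at -0.49 (edgeR adjusted p = 0.269) and Cd9 at -0.03. Of 6 monocyte genes tested, Ccr2 and Cx3cr1 were called higher, at 1.35 and 1.57. In LKO males 0 of 12 lipid-associated and 0 of 6 monocyte genes were called by edgeR, beside 0.00724 percent of all genes. At an unadjusted p under 0.05 stood 1 and 0 of them, beside 12.5 percent of all genes. The spread was wide: Gpnmb ran from 0.562 to 37.7 CPM in control males and from 2.02 to 46.0 CPM in LKO males. For the interaction with sex, edgeR called 0 of 12 and 0 of 6, beside 0 percent of all genes. There 3 of 12 and 2 of 6 had an unadjusted p under 0.05, beside 12.9 percent of all genes.

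The same lists moved in another way between the control sexes. There 4 of 12 lipid-associated genes were called lower in females, beside 9.2 percent of all genes (Gpnmb at -3.76, Mmp12 at -2.49, Cd63 at -1.87 and Spp1 at -0.91), while Atp6v0d2 was higher at 2.08. Ccr2 was lower at -1.35. Of the pan-macrophage genes, Mertk, a receptor for the uptake of dying cells, was higher at 1.03 and the other 12 were not called, with a median of 0.23 over the 13. Hepatocyte genes were called higher in control females for 4 of 5 members, beside 8.8 percent of all genes, among them Alb at 0.53 and Cps1 at 1.10. Of 9 sinusoidal endothelial genes 1 was called, Stab2, higher at 0.39. The median over those 9 was 0.08, and 3 of them lay below 0. Control male 4, with the highest marker sum of the control males (619.5 CPM), had the lowest sum of lipid-associated genes in that group (156 CPM). As given above, that liver differed from its group over all genes as well. LKO females had a like case in LKO female 4, with the lowest marker sum (591 CPM) and the highest lipid-associated sum (347 CPM). LKO males went the other way. There LKO male 3 was highest in both sums (695 and 588 CPM) and LKO male 1 lowest in both (498 and 171 CPM). In control females the extremes of the 2 sums fell in different livers. The part of any of these in the marker differences was not tested.

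**Figure D5:**
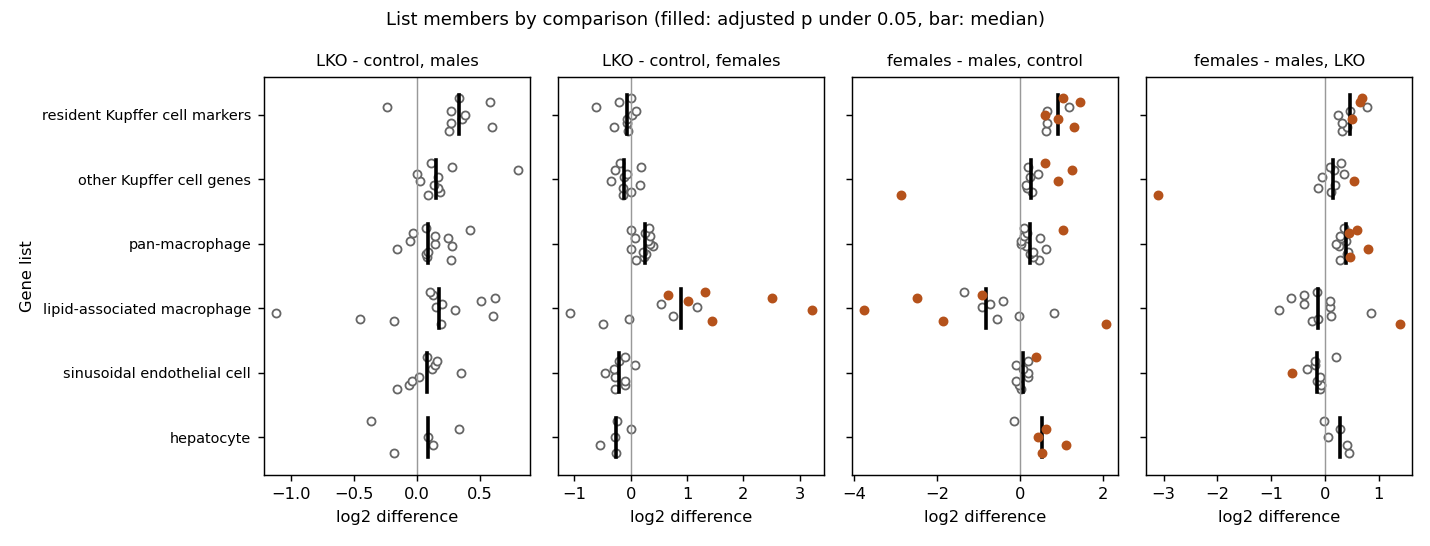
Log2 differences (horizontal axes, each with its own scale) of the members of 6 gene lists in 4 comparisons; points are genes, filled where the adjusted p was under 0.05, and the black bars are medians. Lipid-associated macrophage genes are filled on the right in LKO females, 6 of 12, where no resident marker is filled, and resident markers are filled on the right in the 2 comparisons of females with males.

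Other genes known from Kupffer cells followed the markers in part. Among controls, Siglec1, a sialic acid receptor, was higher in females, with 13.6 ± 3.02 CPM against 5.69 ± 1.63 (log2 difference 1.25, edgeR adjusted p = 0.00172). Its groups did not overlap, where 5.13 percent of all genes had every control female above every control male. Fcna, a ficolin that starts the lectin pathway of complement, was higher at 0.92, and Slc40a1, the iron exporter ferroportin, at 0.60. C6, a terminal complement component that is also made outside Kupffer cells, was lower in females at -2.88, and the other 6 of the 10 genes were not called. Between controls, 3 of these 10 genes were thus called higher in females, beside 8.8 percent of all genes. The regulators and ligands that follow had 2 of 12 and 3 of 8 beside that share. Among LKO livers Fcna was higher in females at 0.54, 1 of 10 beside 5.89 percent of all genes, and C6 lower at -3.10. In LKO males all 10 estimates were above 0 and edgeR called 0 of 10, with Siglec1 at 0.81 (adjusted p = 0.235) as the 1 member at an unadjusted p under 0.05. In LKO females edgeR called 0 of 10, with 1 at an unadjusted p under 0.05. For LKO against control, the shares of all genes at that unadjusted p were 12.5 percent in males and 15.6 percent in females. They apply here and to the regulators and ligands that follow.

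Of the 12 regulators, Spic, a factor of red pulp and bone marrow macrophages that Kupffer cells also use, was higher in control females (1.61 ± 0.67 to 3.76 ± 1.12 CPM, log2 difference 1.23, edgeR adjusted p = 0.0169), as was Maf (0.41, edgeR adjusted p = 0.0403). Nr1h3, the liver X receptor that sustains Kupffer cell identity and is abundant in hepatocytes too, differed by 0.0034 (SE 0.08) between the control sexes. Id3, an inhibitor of helix-loop-helix factors, lay at -0.59 and was not called. In LKO against control, 0 of 12 regulators were called by edgeR in either sex, with 0 in males and 1 in females at an unadjusted p under 0.05.

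Of the 8 niche ligands, Dll1 had the lowest adjusted p in LKO females. Dll1, a Notch ligand, had 4.91 ± 1.03 CPM in control females and 2.98 ± 0.576 in LKO females, a log2 difference of -0.72 (SE 0.17, edgeR adjusted p = 0.0546), and 0 of 8 ligands were called in either sex, with 0 in males and 3 in females at an unadjusted p under 0.05. Between control sexes, Dll1 was higher in females at 0.98 (edgeR adjusted p = 0.00517), Bmp10, a ligand of the BMP family, at 0.95 (edgeR adjusted p = 0.0108), and Csf1, the growth factor that binds Csf1r, at 0.47 (edgeR adjusted p = 0.0188). Il34, the other ligand of Csf1r, lay at -0.27 and was not called. Among LKO livers 0 of 8 ligands were called between the sexes by edgeR, with Dll1 at 0.02. There 2 of 8 had an unadjusted p under 0.05, beside 3686 of all 13778 genes.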

How the data were processed

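Livers of 23 mice were analysed by poly-A RNA sequencing with strand-marking libraries, per the labels' protocols; whether counting used strand is not given in the sources used here. HISAT2 2.0.5 and mm39 are named in the submitters' processing notes, without their roles. The authors deposited raw read counts, a normalized count signal (the count over a size factor), FPKM, log2 fold changes and p-values, in 1 table per sex (24434 genes in males, 24940 in females, 22852 in both). Tests used the deposited counts in edgeR 4.0.16 (R 4.3.3): filterByExpr, TMM factors, quasi-likelihood test, Benjamini-Hochberg adjustment over all genes tested, with genes called under an adjusted p of 0.05. The 2 sexes were fitted separately, each on its own table. Comparisons between sexes and the interaction used genes in both tables. Levels are CPM scaled by TMM over all 23 samples, per kilobase with the deposited gene length. Intervals are 95% intervals from the fit, checked on simulated data. Total counts of 14224665 to 19626662 set the counting precision.

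The markers and all gene lists were chosen with earlier results of these data known. The genes named are the 9 markers, Cpt1a, members of other lists called in a comparison, list members of low p or high level, niche ligands and regulators, and the 5 genes most like the marker mean. Alternatives were RLE factors, library size alone, no filter, at least 10 counts in every sample, DESeq2 1.42.0, limma 3.58.1 on log2(FPKM + 1), 1 fit of all 23 samples, a replicate block, and leaving out each sample. Promoters came from RefSeq by symbol: 7 marker genes matched, and Adgre1 and Csf1r were not used here. The values of 1 regulator are not reported here.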

Additional observations from a re-analysis of the deposited data

Results flagged for a closer look

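In 40 groups of values, 5 values, from 3 livers, lay far from the rest of their group, with a gap to the nearest neighbour that took most of the group's range. Chance sets aside about 1 in 20 such groups, and values of markers from 1 liver are not independent. Timd4 was 8.11 CPM in control male 4, where the other control males had 3.005 to 4.36 CPM. Marco was 34.1 CPM in the same liver, against 3.82 to 12.1 CPM in the others. In LKO male 1 Marco was 25.6 CPM, against 5.13 to 10.99 CPM in the other LKO males. LKO female 6 had 49.4 CPM of Marco, against 5.10 to 17.7 CPM, and 37.5 CPM of Adgre1, against 22.1 to 26.2 CPM in the other LKO females.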

How the results depend on the processing

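No marker was called for LKO against control, or for the interaction, under any alternative run. Of 171 marker values in the male LKO comparison 2 changed sign, of 180 in females 23, and of 270 for the interaction 1. Marco in males went from -0.24 to 0.18 with a replicate block, and to between -0.69 and 0.51 without single samples. Vsig4 in females, at -0.00059, became 0.039 with library size alone, 0.00042 with no filter, 0.0067 with at least 10 counts in every sample, 0.011 with limma on FPKM, 0.0013 in 1 fit of all 23 samples and 0.017 with a replicate block. Without single samples, the female values ran from -0.10 to 0.090 for Vsig4, -0.13 to 0.021 for Clec4f, -0.0078 to 0.25 for Folr2, -0.17 to 0.048 for Cd5l, -0.19 to 0.021 for Adgre1 and -0.040 to 0.079 for Csf1r, and the interaction of Marco from -1.14 to 0.075. The cause was not tested.

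The count of 5 markers higher in control females was 8 in 1 fit of all 23 samples, 6 with DESeq2, 2 with a replicate block and 5 to 7 without single samples. Over all genes the calls in either direction were 2466 in the main comparison, 3019 in 1 fit of all 23 samples, 3024 with DESeq2 and 991 with the block. With the block, Vsig4 (adjusted p = 0.0543), Cd163 (0.0573) and Csf1r (0.0635) were no longer called, nor was Timd4 among LKO livers (0.0545), where 2 markers were called in place of 3. Same-numbered livers of the LKO and control groups correlated at -0.38 to 0.42 in males and -0.013 to 0.18 in females. Same-numbered females and males, which the block joins in these comparisons, correlated at -0.19 to 0.12 among controls and -0.13 to 0.27 among LKO livers. The replicate numbers are therefore not taken as pairs. Within females the block raised the genes called for LKO against control from 194 to 334, and still no marker was called. Timd4, Cd163 and Folr2 had at most 274, 208 and 151 counts in any liver and carry the largest counting error.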
